A study of Homo sapiens with 12 samples.

Results

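Early replicating regions of human chromosome 11 were examined in U2OS-MycER cells under 4 conditions. The members were all regions on chromosome 11 in the lists of broad EdU-HU-seq regions, chosen by position alone, and they numbered 988 of 18185 regions over the 4 lists (genome build hg19). Of these, 214 of 3874 regions came from the list of shNT cells, 247 of 4653 from shNT + OHT, 270 of 4896 from shCDK12 and 257 of 4762 from shCDK12 + OHT. A stretch of 7 Mb at the band 11q13, from 63 to 70 Mb, is called the 11q13 window. It was set against the remaining 127 Mb of the chromosome that lay between the chromosome's start and the last region. The limits of the band itself were not looked up, so that the rest may hold part of it.

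U2OS is a human osteosarcoma line, here carrying MycER, a chimera of Myc and the estrogen receptor that is switched on by OHT (4-hydroxytamoxifen). Infection with virus gave the cells an inducible hairpin, either shNT, which has no target, or shCDK12, aimed at CDK12, the kinase that phosphorylates the tail of RNA polymerase II during elongation. Per the labels all 4 conditions shared 1 µg/mL doxycycline to express the hairpin, an arrest of 8 h in nocodazole at 100 ng/mL, a mitotic shake-off, and release for 24 h into 25 µM EdU with 2 mM hydroxyurea. OHT, where given, was at 300 nM for 40 h. The labels name 12 samples, 3 per condition, but each list merged the samples of its condition. No spread between samples could therefore be computed and no test was run, so that each condition is 1 list and a difference between lists has no replicate check. How far CDK12 was lowered, and whether the line was 1 clone, are not given in the sources used here.

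EdU is a thymidine analogue that is built into new DNA, and hydroxyurea depletes nucleotides so that forks stall close to the origins that fired first. Regions rich in EdU under this drug are therefore read as the parts of the genome that replicate at the start of S phase. In mammalian cells early replication is known to go with open, gene-dense and transcribed chromatin, and late replication with gene-poor chromatin at the nuclear lamina. Chromosome 11 holds both kinds, with gene-dense bands such as 11q13, which harbours the tumour suppressor MEN1 and the cell cycle gene CCND1, and long gene-poor stretches, besides large clusters of olfactory receptor genes that are silent in most cell types. These statements are background on the bands. No gene was placed by coordinate here, because the annotation at hand was of another build.

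Between 19.6% and 23.1% of chromosome 11 lay inside regions. The covered length was 26.3 Mb in shNT, 28.2 Mb in shNT + OHT, 27.0 Mb in shCDK12 and 30.9 Mb in shCDK12 + OHT. Chromosome 11 ranked 4 among 24 chromosomes by covered length in the first 3 of these lists and 5 in shCDK12 + OHT, and it held 5.60% to 5.90% of all covered sequence outside the mitochondrial genome. Among the 4 lists, cover was thus largest in shCDK12 + OHT and smallest in shNT. The share of the genome's covered sequence on chromosome 11 stayed within a narrow range.

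The regions differed in width by more than 3 orders of magnitude within a list, from 0.4 kb to 2204.4 kb in shNT, 2618 kb in shNT + OHT, 1570.4 kb in shCDK12 and 2928.4 kb in shCDK12 + OHT. The median width was 78.2 kb in shNT (interval from the binomial distribution of ranks, 68.8 to 88.0 kb), 66.0 kb in shNT + OHT (59.6 to 78.0 kb), 58.6 kb in shCDK12 (52.8 to 67.2 kb) and 77.2 kb in shCDK12 + OHT (69.2 to 84.4 kb). These 95% intervals describe the regions of a list and not the spread of cultures. As deposited, the shCDK12 regions were the narrowest and the most numerous. This order depended on low-scoring regions and on the joining of neighbours, given here in the order shNT, shNT + OHT, shCDK12 and shCDK12 + OHT. With 1 minimum score shared by the lists there were 214, 234, 216 and 256 regions with median widths of 78.2, 69.2, 76.4 and 77.4 kb. Joining neighbours up to 10 kb apart left 192, 234, 238 and 230 regions with medians of 83.4, 64, 65.2 and 82.2 kb. There the shCDK12 regions were still the most numerous, but those of shNT + OHT were slightly narrower. Joining neighbours up to 100 kb apart left 126, 133, 124 and 117 regions with medians of 101.8, 137.6, 136.4 and 190.0 kb. Few regions carried much of the length: the 4 to 6 regions over 500 kb in each list covered 15.6% to 19.9% of its covered sequence.

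The deposited read count of a region, summed over the merged samples, was not scaled to library size. On chromosome 11 the shNT list held 1038311 reads, the shNT + OHT list 2926507, the shCDK12 list 760507 and the shCDK12 + OHT list 1583829, or 39.6, 104, 28.2 and 51.2 reads per covered kb. Differences in cover between lists could not be separated from this difference in depth. Since all regions outside the mitochondrial genome averaged 39.0, 102, 29.2 and 52.3 reads per kb in the same lists, the reads per kb of a region were divided by that mean of its own list. The quotient is called relative density below, and a value of 1 is the mean of the list. The median chromosome 11 region had a relative density of 0.564, 0.539, 0.559 and 0.629, in the order shNT, shNT + OHT, shCDK12 and shCDK12 + OHT, which is used throughout. Most regions were therefore thinner in reads than the list mean, which the wide dense regions raise. Counting intervals given below cover counting error only, since reads without molecular identifiers are not independent molecules.

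Cover was uneven along the chromosome. The chromosome was cut into 134 steps of 1 Mb, and 47, 42, 48 and 45 steps held no region, or 35.1%, 31.3%, 35.8% and 33.6%. Over all chromosomes except M and Y, 47.0%, 42.2%, 45.1% and 43.7% of steps were without one, so that chromosome 11 had fewer bare steps than the genome in every list. The same 39 steps (29.1%) were bare in all 4 lists, 82 held regions in all 4, and 13 changed from list to list. Covered length per step had a median of 85.4, 99.4, 85.4 and 118.4 kb. Between 19 and 25 steps were covered over at least 500 kb, and 6 or 7 of these lay in the 11q13 window.

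**Figure D1:**
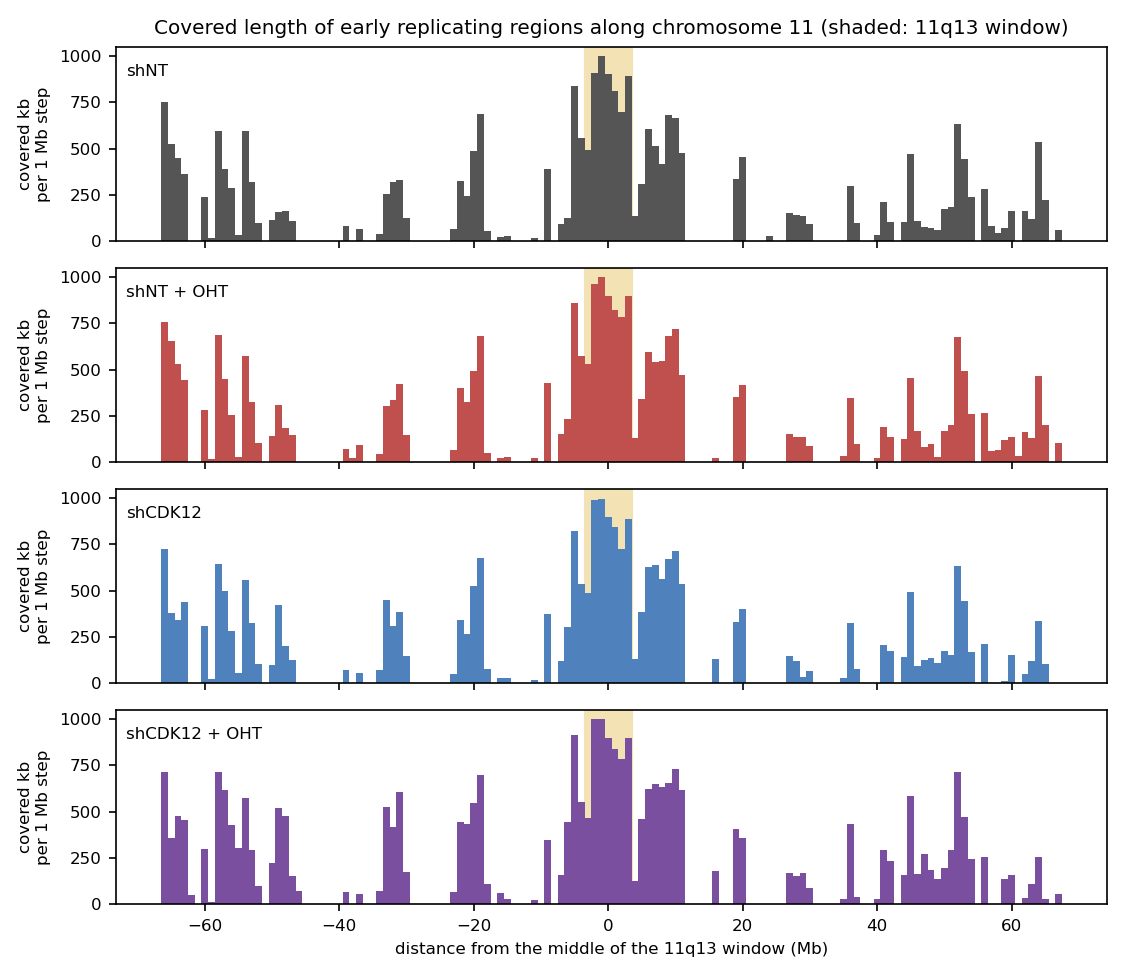
Covered length in kb for each 1 Mb step (vertical axis) against distance in Mb from the middle of the 11q13 window (horizontal axis), with 1 panel per list and the window shaded. The tallest bars, up to 1000 kb, sit inside the shaded window in all 4 lists, and 39 steps are bare in each of them.

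The 11q13 window was nearly filled. Regions covered 81.7% of it for shNT, 84.3% for shNT + OHT, 83.3% for shCDK12 and 84.1% for shCDK12 + OHT, against 16.2%, 17.5%, 16.6% and 19.7% of the rest of the chromosome. With 5.22% of the length, the window held 21.8%, 20.9%, 21.6% and 19.0% of the covered sequence and 36.5%, 36.1%, 33.2% and 29.5% of the reads of chromosome 11. None of the 128 windows of 7 Mb on chromosome 11 had more cover in any list. The best window without overlap was 71 to 78 Mb, with 52.3%, 55.6%, 59.2% and 62.4%. Among 2906 such windows over all chromosomes, 2, 3, 1 and 8 had more cover, on chromosome 19 in the first 3 lists and on chromosomes 1, 17, 19 and 22 in shCDK12 + OHT. Neighbouring windows overlap, so that these counts are descriptions of rank.

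The window was also denser in reads than the rest. Its relative density was 1.70, 1.75, 1.48 and 1.52, and that of the rest 0.823, 0.821, 0.823 and 0.853. The ratio of the window to the rest was 2.07 in shNT (counting interval 2.06 to 2.07), 2.13 in shNT + OHT (2.12 to 2.13), 1.80 in shCDK12 (1.79 to 1.81) and 1.78 in shCDK12 + OHT (1.77 to 1.78). Both lists of CDK12-silenced cells thus had a smaller ratio than both lists of shNT cells. Windows of 7 Mb without overlap with 11q13 and with at least 350 kb covered reached at most 1.20, 1.30, 1.35 and 1.42, at 46 to 53 Mb, which includes a very dense region beside the centromere. With the same minimum, 4, 4, 4 and 3 windows that overlap 11q13 in part were denser than it, so that it was not the densest placement of 7 Mb. Without the minimum of 350 kb, a setting chosen after seeing the data, 1, 0, 2 and 2 windows without overlap were denser than 11q13. In shNT this was 78 to 85 Mb, with 1.2 kb covered and a relative density of 4.29. In the shCDK12 lists they reached 2.14 and 2.11 at 49 to 56 Mb, with 74.0 and 106.8 kb covered.

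Regions of the window were wider than those of the rest. They numbered 17, 15, 19 and 13 and had median widths of 131.2, 150.4, 123.2 and 266.4 kb, against 76.0, 63, 57.2 and 75.2 kb for the rest. Regions of at least 100 kb made up 11 of 17, 10 of 15, 13 of 19 and 10 of 13. The widest region outside the window began between 61 and 62 Mb in every list, at chr11:61213201-61911200 in shNT, and was 698, 696.4, 579.6 and 694.4 kb wide.

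At the centre of the window was 1 wide domain that was cut differently in each list. The union of the 4 lists ran without interruption from chr11:63651601-66912000, a domain of 3260.4 kb. In shNT it was made of 4 regions, of which the widest, chr11:64341201-66545600, held 180720 reads at a relative density of 2.10. In shNT + OHT it was made of 2, and the wider one, chr11:64281601-66899600, held 599903 reads at 2.24. In shCDK12 it was made of 3, with chr11:64288401-65858800 at 1.98 beside chr11:65863201-66900800 at 1.66. In shCDK12 + OHT it was made of 2, and chr11:63968401-66896800 held 284724 reads at 1.86. These were the widest and the highest-scoring regions of the chromosome in their lists. The pieces were set apart by gaps of 84.0, 4.8 and 6.4 kb in shNT and 1 gap of 38.4 kb in shNT + OHT. The shCDK12 list had gaps of 11.6 and 4.4 kb, and the shCDK12 + OHT list 1 of 5.2 kb. The width and number of these regions follow from such gaps: the 1 of 4.4 kb divided the widest stretch in shCDK12 at a place where the other 3 lists had no gap.

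**Figure D2:**
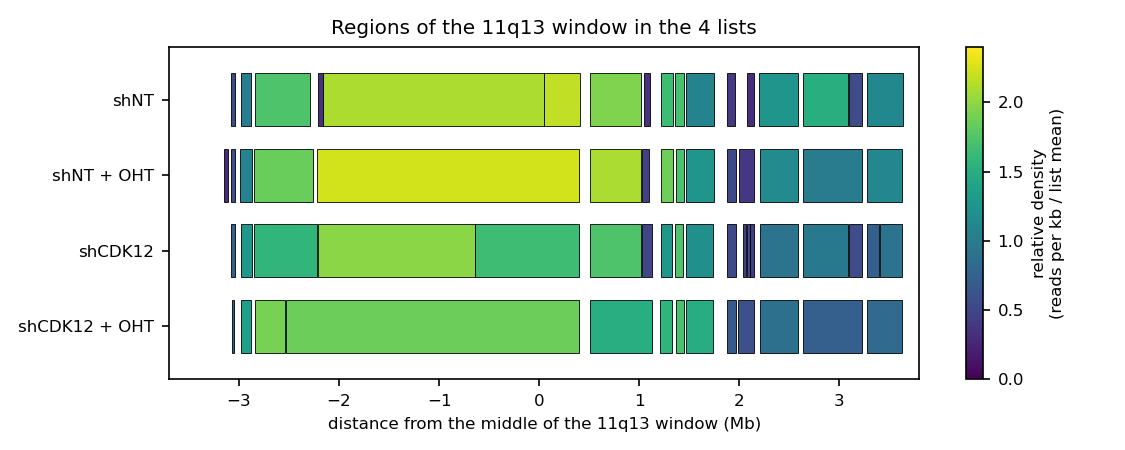
Regions of the 11q13 window drawn to scale for the 4 lists (rows) against distance in Mb from the middle of the window, with relative density as colour from 0 to above 2. The wide domain is cut into 4, 2, 3 and 2 pieces at 2.02, 2.17, 1.80 and 1.87 for the whole domain, while white gaps of about 50 kb at the right lie at the same place in every list.

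Taken as a whole, the wide domain had a relative density of 2.02 for shNT, 2.17 for shNT + OHT, 1.80 for shCDK12 and 1.87 for shCDK12 + OHT, and it was lower with shCDK12 than with shNT both without and with OHT. The next domain to the right, chr11:67006001-67632800, showed the same order between hairpins at 1.77, 1.88, 1.52 and 1.51. Farther right, chr11:67967201-68248800 went the other way at 1.07, 1.247, 1.19 and 1.49. So did the thin domain chr11:68485601-68651200, at 0.316, 0.380, 0.453 and 0.590. The small domain at the left border, chr11:63515201-63626800, likewise had 1.01, 1.08, 1.27 and 1.33. Other domains below the densest were lower with shCDK12. The domain chr11:67710001-67839200 had 1.65, 1.87, 1.27 and 1.57, and chr11:69774801-70136400 at the right border 1.12, 1.10, 0.8499 and 0.824. On the log2 scale these 2 changed by -0.38 and -0.40 without OHT and by -0.25 and -0.41 with it, and the wide domain by -0.17 and -0.22. The window therefore did not move as 1 block, and its thinner domains went in both directions.

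Step by step, cover hardly varied between lists. Between 64 and 65 Mb it was 911, 962, 988 and 1000 kb, between 65 and 66 Mb 1000, 1000, 996 and 1000 kb, and between 66 and 67 Mb 906, 899.6, 901 and 897 kb. The border step from 63 to 64 Mb had 494, 530, 490 and 467 kb. Between 67 and 68 Mb cover was 813, 823, 843 and 839.6 kb, between 68 and 69 Mb 700, 783, 725 and 786 kb, and between 69 and 70 Mb 894, 900.4, 888 and 899.6 kb. No step of the window changed by 100 kb between any of the compared lists.

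Density, in contrast, varied within the window. From 64 to 67 Mb the 3 steps lay between 1.93 and 2.13 in shNT, between 2.14 and 2.24 in shNT + OHT, between 1.66 and 1.94 in shCDK12, and at 1.86 in shCDK12 + OHT. The step from 67 to 68 Mb had 1.72, 1.84, 1.49 and 1.53. The step from 68 to 69 Mb was close to the list mean with 0.993, 0.961, 0.895 and 0.980. Reads of a region were shared among steps by length, so that neighbouring steps inside 1 wide region carry the same value and are not separate measurements.

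**Figure D3:**
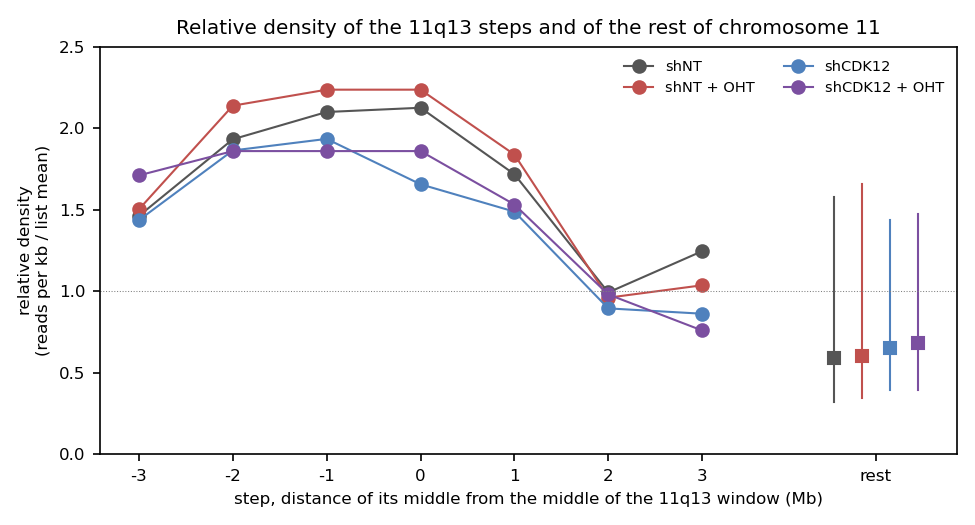
Relative density (vertical axis, reads per kb over the list mean) of the 7 steps of the 11q13 window, by distance of the step's middle from the middle of the window in Mb, with the median (square) and the lowest and highest value (line) of the other steps with at least 50 kb covered. The shNT lists lie above the shCDK12 lists from 64 to 68 Mb, and at the last step the order falls from 1.246 in shNT to 0.759 in shCDK12 + OHT.

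The step from 69 to 70 Mb had the largest decrease in density of the 7 steps with shCDK12, without and with OHT. It held 48.6, 106, 25.2 and 39.7 reads per covered kb, a relative density of 1.246, 1.04, 0.862 and 0.759. Its cover of 888 to 900.4 kb did not go with this order. Set against the step from 65 to 66 Mb in the same list, which needs no scaling between lists, it reached 0.593 of that density for shNT, 0.463 for shNT + OHT, 0.445 for shCDK12 and 0.408 for shCDK12 + OHT. The domains of this step carried the same order: chr11:69139601-69724800 had 1.29, 0.997, 0.874 and 0.716, and chr11:68702001-69090000, which reaches into the step, 1.253, 1.14, 0.912 and 0.877. The piece chr11:69139601-69587600 of the shNT list held 26413 reads at 1.51, and the shCDK12 list had nearly the same limits at 0.969.

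The gaps in this step were the most constant of the chromosome. Of the 213 gaps of the shNT list, 3 had both limits within 800 bp in all 4 lists. They were chr11:69090001-69139600 with 49.6 to 50 kb, chr11:69724801-69774800 with 50 to 50.4 kb, and chr11:85888801-85899200 with 10.4 to 11.6 kb. Outside the first 2 of them the step was almost without bare sequence. Whether these gaps are stretches of undetermined bases in the build was not tested.

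Outside the window, cover and density were lower but not uniformly so. Of the steps with at least 50 kb covered, 70, 69, 68 and 71 lay outside it, with medians of 0.592, 0.601, 0.651 and 0.680 in relative density and maxima of 1.58, 1.66, 1.44 and 1.47. Only 14, 10, 11 and 12 of them were above the list mean. The best covered were 61 to 62 Mb with 839, 859.6, 825 and 917 kb, 0 to 1 Mb with 751, 758, 725 and 714 kb, 76 to 77 Mb with 664, 718, 716 and 729 kb, 47 to 48 Mb with 685, 684, 679 and 696 kb, and 75 to 76 Mb with 682, 679.6, 674 and 656 kb. Cover was thus similar among lists in the best covered steps.

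Their density was not. The step at the short-arm end, 0 to 1 Mb, had a relative density of 1.58, 1.66, 1.01 and 1.12, and was 0.751, 0.742, 0.519 and 0.603 of the 65 to 66 Mb step of the same list. The step from 76 to 77 Mb ran the other way with 0.585, 0.697, 0.832 and 1.15, as did 47 to 48 Mb with 1.01, 1.11, 1.30 and 1.37. The step from 8 to 9 Mb, named after its values were seen, had 0.487, 0.532, 0.636 and 0.830.

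Across steps with at least 50 kb covered, density went with cover. Spearman's rho was 0.63 over 77 steps in shNT, 0.68 over 76 in shNT + OHT, 0.60 over 75 in shCDK12 and 0.64 over 78 in shCDK12 + OHT. It is given as a description, since the steps of a list share its libraries and neighbouring steps share regions. The steps spread less in the shCDK12 lists. The 90th percentile of relative density was 3.60, 3.58, 2.92 and 2.75 times the 10th, and over all chromosomes 3.39, 3.59, 2.99 and 2.82 times, so that the narrower spread was not particular to chromosome 11.

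**Figure D4:**
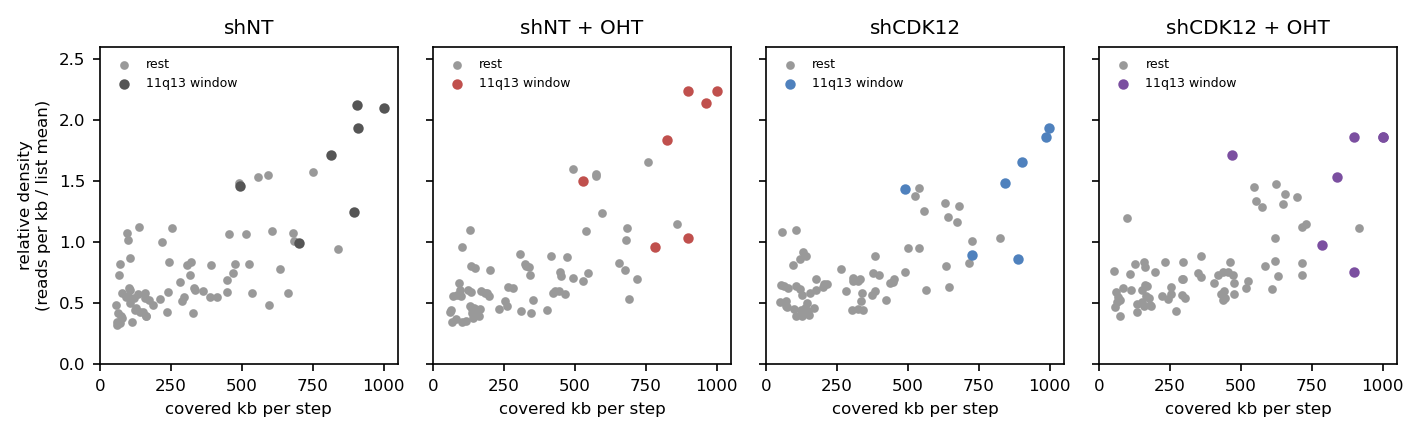
Relative density of each 1 Mb step (vertical axis) against its covered kb (horizontal axis), for steps with at least 50 kb covered, 1 panel per list, with steps of the 11q13 window coloured and the rest in grey. Points rise to the right in each panel (Spearman's rho 0.60 to 0.68), and the top of the coloured points is lower in the 2 shCDK12 panels (1.94 and 1.86) than in the shNT panels (2.13 and 2.24).

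Some single regions stood out. The densest region of at least 10 kb in every list was chr11:51567201-51593200, which is 26.0 kb wide with the same limits in all 4 lists. It held 3487, 7481, 3896 and 9071 reads and had a relative density of 3.44, 2.81, 5.13 and 6.68. It lies at the edge of the stretch of 3.41 Mb without regions that holds the centromere. Only 1 other region, chr11:95125601-95126400 of 0.8 kb, had the same limits everywhere, within 800 bp, at 156, 299, 117 and 170 reads. The densest region of any width in shNT, shNT + OHT and shCDK12 was also 0.8 kb wide, chr11:85194801-85195600, with 955, 2146 and 861 reads. Whether reads can be placed uniquely in the 26.0 kb and 0.8 kb regions was not tested, so that their density may not describe replication. Apart from the 26.0 kb region, the densest of at least 10 kb in the shCDK12 lists lay outside the window at about 72.8 to 73.1 Mb, with 2.13 in shCDK12 and 2.39 in shCDK12 + OHT. In the shNT lists it was a piece of the wide domain inside the window, at 2.17 without and 2.24 with OHT.

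The first comparison asks what activated Myc does to early replication when CDK12 is present. Cover was slightly larger with OHT in shNT cells: 28.2 against 26.3 Mb of chromosome 11, a difference of 7.32%, against 10.4% over all chromosomes. The window gained 178.8 kb and the rest 1744 kb. A step was called when its cover differed by at least 100 kb: 4 of 134 steps were raised (2.99%, against 4.43% of the steps of all chromosomes) and 0 lowered (0% of all steps), and the share raised was thus not above the background. The largest gains were at 17 to 18 Mb, from 159.6 to 310 kb, at 74 to 75 Mb, from 414 to 546 kb, and at 1 to 2 Mb, from 526 to 655 kb. The largest loss was 68.4 kb at 130 to 131 Mb.

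In the shNT + OHT list 43 of 247 regions had no base in common with the shNT list, or 17.4% (Wilson interval 13.2% to 22.6%), against 21.3% of regions on all chromosomes. In the other direction 2 of 214 shNT regions had none in shNT + OHT, or 0.935%, against 1.6%. Wilson intervals here and below treat the regions of a list as independent, which neighbours may not be, and do not measure the spread of cultures. The regions only in shNT + OHT were narrow, with a median of 35.6 kb, and thin, with a median relative density of 0.329. The widest of them was chr11:60822401-60900400, with 78.0 kb and 2521 reads. The shNT + OHT list had 2926507 reads on the chromosome against 1038311, and the part of this in the added regions was not tested.

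Density differed little with OHT in shNT cells. Of 75 steps with at least 50 kb covered in both lists, 1 was higher by 25% or more (1.33%, against 2.82% over all chromosomes) and 5 were lower by 20% or more (6.67%, against 6.11%), none of them in the window. On the log2 scale the relative density of the window changed by 0.040 and that of the rest by -0.0037. Divided instead by the density of 57 narrow regions present in every list, 8 steps were higher (10.7%, against 19.6% over all chromosomes) and 1 lower (1.33%, against 1.65%), so that the split between higher and lower depended on the scaling.

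CDK12 silencing without OHT went with differences in cover in both directions. Covered length was 27.0 against 26.3 Mb, a difference of 2.74%, against 2.18% over all chromosomes. Of 134 steps, 7 were raised (5.22%, against 3.48%) and 6 lowered (4.48%, against 1.77%). The largest gains were at 17 to 18 Mb, from 159.6 to 422 kb, at 33 to 34 Mb, from 254 to 450 kb, and at 60 to 61 Mb, from 122 to 302 kb. The largest losses were at 130 to 131 Mb, from 534 to 336 kb, at 1 to 2 Mb, from 526 to 378 kb, and at 131 to 132 Mb, from 220.4 to 105 kb. These gains lay on both arms, and these losses near the ends of the chromosome.

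Of the 270 shCDK12 regions, 53 had no base in common with the shNT list, or 19.6% (15.3% to 24.8%), against 20.2% over all chromosomes. Of the 214 shNT regions, 9 had none in shCDK12, or 4.21% (2.23% to 7.80%), against 6.08%. The widest region gained was chr11:33781601-33866000 with 84.4 kb, and the widest lost was chr11:123039201-123118400 with 79.2 kb. In shNT 22 regions overlapped 2 or more shCDK12 regions, beside the larger number and smaller width of the shCDK12 regions. In return, 13 shCDK12 regions overlapped 2 or more of shNT. These 2 counts have no share over all chromosomes beside them. Under a common minimum score in all lists the order turned, with 21 of 216 shCDK12 regions absent from shNT (9.72%, against 8.7% over all chromosomes) and 26 of 214 shNT regions absent from shCDK12 (12.1%, against 13.7%). This minimum kept all 214 shNT regions and left 216 of the 270 shCDK12 regions. The shCDK12 list held the fewest reads, and whether the score follows depth was not tested.

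The density of the window was lower with shCDK12. It changed by -0.20 on the log2 scale (counting interval -0.21 to -0.19), while the rest changed by 0.00098. Of 72 steps, 7 were higher (9.72%, against 13.9% over all chromosomes) and 8 lower (11.1%, against 10.8%), including 66 to 67 Mb and 69 to 70 Mb in the window. The other steps lowered included 0 to 1 Mb and 131 to 132 Mb, which changed by -0.65 each. Divided by the narrow regions, 2 steps were higher (2.78%, against 4.04%) and 18 lower (25.0%, against 21.9%). The window was lower under each scaling tried.

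With CDK12 silenced in the presence of OHT, the added cover lay outside the window. Covered length was 30.9 against 28.2 Mb, a difference of 9.85%, against 11.9% over all chromosomes, while the cover of the window changed by -8.4 kb and that of the rest by 2784.8 kb. Of 134 steps, 17 were raised (12.7%, against 9.43%) and 4 lowered (2.99%, against 1.48%). The largest gains were at 18 to 19 Mb, from 182 to 476 kb, at 11 to 12 Mb, from 28.0 to 303 kb, and at 33 to 34 Mb, from 306 to 523 kb. The largest losses were at 1 to 2 Mb, from 655 to 358 kb, at 130 to 131 Mb, from 466 to 254 kb, and at 131 to 132 Mb, from 199 to 27.6 kb. The steps with the largest losses were the same 3 as without OHT, although each comparison had its own shNT list.

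Of the 257 shCDK12 + OHT regions, 32 had no base in common with shNT + OHT, or 12.5% (8.96% to 17.0%), against 14.8% over all chromosomes, and 21 of 247 regions were absent in the other direction, or 8.50% (5.63% to 12.6%), against 11.5%. The widest gained was chr11:11262801-11360800 with 98.0 kb, and the widest lost was chr11:1212801-1293200 with 80.4 kb. On the log2 scale, relative density changed by -0.20 in the window (-0.21 to -0.20) and by 0.056 in the rest. Of 71 steps, 17 were higher (23.9%, against 27.7%) and 4 lower (5.63%, against 7.51%), with 69 to 70 Mb the 1 step of the window among them. Divided by the narrow regions, 6 were higher (8.45%, against 14.3%) and 13 lower (18.3%, against 13.3%).

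OHT in CDK12-silenced cells went with the largest difference in cover of the 4 comparisons. Covered length was 30.9 against 27.0 Mb, a difference of 14.8%, against 20.9% over all chromosomes, with 58.4 kb gained in the window and 3920.8 kb in the rest. The shCDK12 + OHT list held 1583829 reads on the chromosome against 760507 in shCDK12, and the part of depth in this difference was not tested. Of 134 steps, 16 were raised (11.9%, against 11.3%) and 0 lowered (0% of all steps). The largest gains were at 18 to 19 Mb, from 202 to 476 kb, at 11 to 12 Mb, from 55.2 to 303 kb, and at 35 to 36 Mb, from 383 to 608 kb. In the shCDK12 + OHT list 29 of 257 regions were absent from shCDK12, or 11.3% (7.97% to 15.7%), against 15.5%, and 14 of 270 shCDK12 regions were absent from it, or 5.19% (3.11% to 8.51%), against 6.47%. In shCDK12 + OHT 35 regions overlapped 2 or more of shCDK12, beside the smaller number and larger width of the shCDK12 + OHT regions. In return, 14 shCDK12 regions overlapped 2 or more of shCDK12 + OHT. For these counts, too, no share over all chromosomes is given.

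Relative density moved little in this comparison. The window changed by 0.034 and the rest by 0.052 on the log2 scale. Of 73 steps, 4 were higher (5.48%, against 10.4%) and 2 lower (2.74%, against 2.45%). Divided by the narrow regions, 29 were higher (39.7%, against 39.9%) and 1 lower (1.37%, against 0.947%), so that these shares were close to those of all chromosomes. The window changed by 0.21 under that scaling. The size of the difference with OHT thus depended on the scaling here too.

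**Figure D5:**
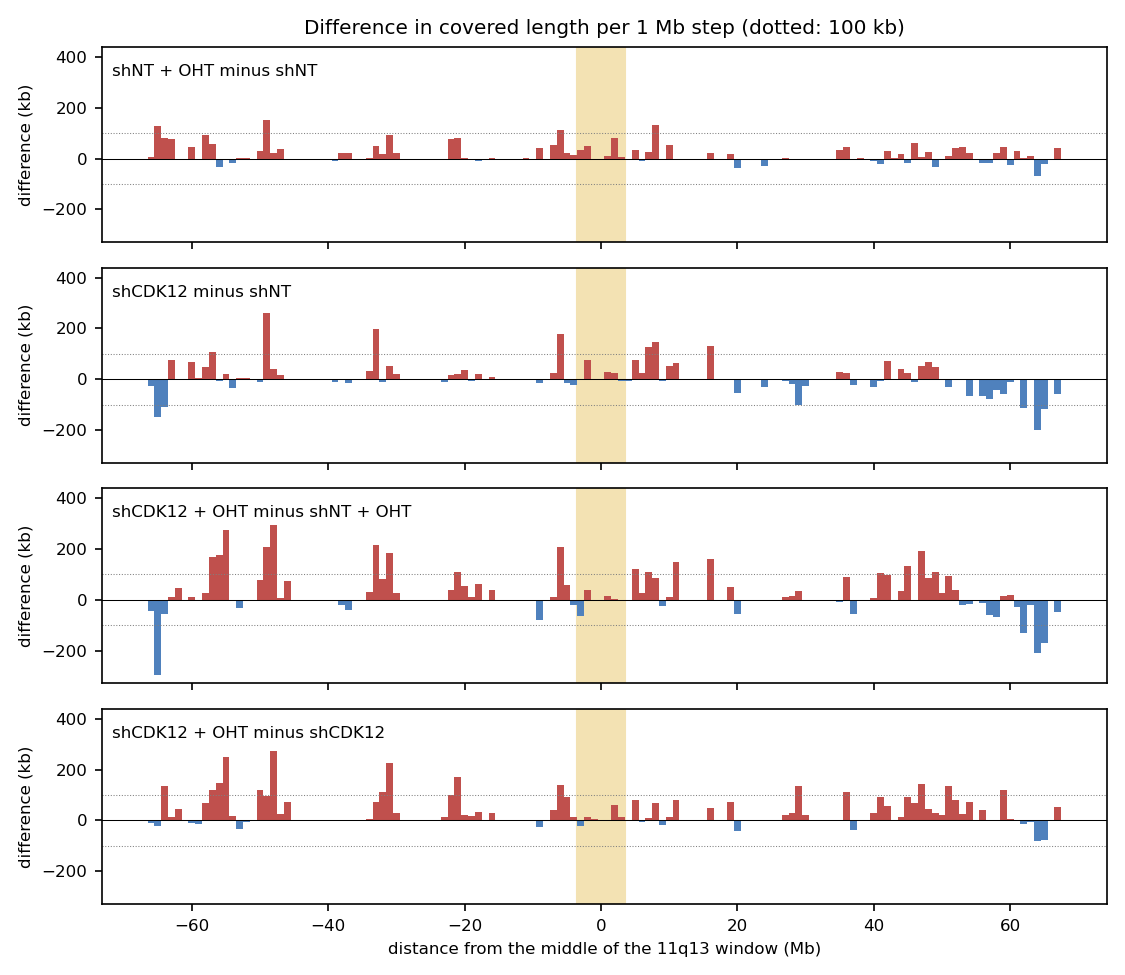
Difference in covered kb per 1 Mb step (vertical axis) against distance in Mb from the middle of the shaded 11q13 window, with 1 panel for each of the 4 comparisons, gains upward, losses downward and dotted lines at 100 kb. No bar in the window reaches a dotted line, and the shCDK12 comparisons with shNT lists have their longest downward bars near the ends, down to -296.8 kb.

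To set the lower density of the window beside equally covered sequence, the 5 window steps with a mean cover of at least 800 kb were compared with the 104 such steps on the other parts of chromosome 11 and on other chromosomes. With shCDK12 the 5 steps had a median log2 change of -0.21 without OHT and -0.27 with OHT. The 104 others had medians of 0.04 (quartiles -0.07 and 0.18) and 0.02 (-0.13 and 0.14), and 12 and 7 of them lay below the median of the window. With OHT the window steps had 0.09 in shNT and -0.0028 in shCDK12, against 0.13 and 0.08. Neighbouring steps share regions, so that the 5 steps are fewer than 5 separate measurements. The 104 steps were matched on cover and not on the density in the shNT or shNT + OHT list. On chromosome 11, denser steps of the shNT list had lower log2 changes with shCDK12 without OHT (Spearman's rho -0.52). Denser steps of the shNT + OHT list likewise had lower log2 changes with shCDK12 in the presence of OHT (rho -0.61). In both cases the density enters both sides of the rho. Whether the decrease was particular to the window at equal density was not tested.

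Seen over all 4 lists, 257 union regions with 34.3 Mb lay on chromosome 11. Of these, 170 (66.1%, with 86.3% of the length) were in every list. The largest incomplete groups were 19 regions in all but shNT and 18 in shCDK12 + OHT alone, with median widths of 69.2 and 58.2 kb. A further 12 were in both shCDK12 lists alone, 9 in shNT + OHT alone, 8 in both OHT lists alone, 5 in both shNT lists alone, 4 in shCDK12 alone and 1 in shNT alone. No share over all chromosomes is given for these groups, so they are not read as particular to chromosome 11. Every incomplete group had a smaller median width than the union regions in all 4 lists, whose median was 105 kb. A union region takes the outer limits of its lists and joins neighbours, so that this contrast is in part set by how the union was made.

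Cover in several steps was larger in each list than in the one before it, in the order used here. Cover at 17 to 18 Mb was 159.6, 310, 422 and 519 kb, at 33 to 34 Mb 254, 306, 450 and 523 kb, at 60 to 61 Mb 122, 233, 302 and 442 kb, and at 74 to 75 Mb 414, 546, 562 and 632 kb. At 11 to 12 Mb and 18 to 19 Mb the gain was in shCDK12 + OHT, with 33.6, 28.0, 55.2 and 303 kb and 160, 182, 202 and 476 kb. The reverse order was seen at 130 to 131 Mb with 534, 466, 336 and 254 kb and at 131 to 132 Mb with 220.4, 199, 105 and 27.6 kb. The steps from 123 to 124 Mb and 124 to 125 Mb held 79.2 and 44.4 kb in shNT and 60.0 and 67.6 kb in shNT + OHT, and nothing in either shCDK12 list. These steps were named for their size of change, so that their order is a description.

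The long stretches without regions were largely common to the lists. In the union of the lists 13 gaps of at least 2 Mb added up to 48.9 Mb, or 36.5% of the 134 Mb. Single lists had 12, 12, 14 and 14 such gaps with 51.0, 50.04, 56.5 and 54.9 Mb. At this minimum length the shCDK12 lists had more sequence in gaps than the shNT lists. Gaps of at least 1 Mb did not keep that order, with 74.0, 68.5, 69.4 and 71.5 Mb.

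The longest gap, chr11:36502401-43936800, measured 7.43 Mb in the union and 7.53, 7.53, 7.44 and 7.43 Mb in the lists. The next was chr11:20078401-27207200 with 7.13 Mb, and 7.48, 7.49, 7.48 and 7.14 Mb in the lists, the last being shorter because of 72.8 kb of cover at 20 to 21 Mb in shCDK12 + OHT. It was followed by chr11:96091601-101719200 with 5.63 Mb, and 6.01, 5.63, 5.87 and 5.64 Mb in the lists. These 3 gaps lie on both arms and were long in every list.

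Elsewhere the presence of 1 region decided the length of a gap. The gaps chr11:78336401-82638400 with 4.30 Mb and chr11:82966001-85194800 with 2.23 Mb are set apart by regions inside chr11:82638401-82966000, which were missing in shNT, where 1 gap of 6.86 Mb spanned the site, and the step held 0, 20.8, 130 and 180.4 kb. The region chr11:90181601-90211200 with 419 reads was in shNT alone and split a gap that measured 6.64, 6.65 and 6.62 Mb in the other lists into 3.53 and 3.07 Mb. In the union these pieces were chr11:86661201-90181600 and chr11:90211201-93279200. At the long-arm end the last region reached position 133942000 in shNT, and the last region of shCDK12 ended at 131962800.

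The remaining gaps of the union were chr11:29358801-32822400 with 3.46 Mb, chr11:51593201-55007200 with 3.41 Mb around the centromere, chr11:14478001-16777200 with 2.30 Mb, chr11:4122001-6366000 with 2.24 Mb, chr11:104093201-106250800 with 2.16 Mb and chr11:55027601-57043200 with 2.02 Mb. The gap around the centromere measured 3.41 to 3.42 Mb in every list. Between it and the last gap named lay 1 narrow region of 16.8, 20.4, 18.4 and 20.4 kb. Regions next to long gaps were narrower than the median region of their list: 22, 22, 27 and 27 regions bordered one, with median widths of 50.2, 39.4, 34.8 and 47.2 kb and median relative densities of 0.516, 0.580, 0.555 and 0.512. Against the medians of all chromosome 11 regions, these densities were higher in shNT + OHT and lower in the other lists, with 0.555 against 0.559 in shCDK12. A gap says that no region was called there, which for sequence that reads cannot be placed on is not a statement on replication.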

How the data were processed

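EdU-labelled genomic DNA was tagged with a cleavable biotin, pulled down and made into sequencing libraries. The submitters' processing notes name BWA 0.6.2, SAMtools, SICER and the builds hg19 and mm10, whose roles and settings are not given in the sources used here. The authors deposited 1 list of regions per condition, with merged samples, holding for each region a whole read count and a score. All limits lie on a grid of 400 bp. The lists were taken as hg19: they pass the chromosome ends of hg38 on 14 of 24 chromosomes. Cover, gaps, overlaps (at least 1 bp) and relative density were computed with Python 3.11.15, pandas 2.3.3, numpy 2.4.6 and scipy 1.17.1, and checked on simulated lists. The deposited score served to name the highest-scoring region and to set common minimums. Whether it follows depth was not tested, so that a common minimum may be stricter for lists with fewer reads. A density step needed at least 50 kb covered in both lists and a value higher by 25% or lower by 20%. Shares have Wilson 95% intervals. Positions are printed from 1. Depth per list is given as reads in regions, since library totals were not used here. Regions and steps were named by rule: the widest, highest-scoring and densest (at least 10 kb), those of at least 100 kb in the window (as domains of the union), the widest absent from a compared list, union gaps of at least 2 Mb, the window's steps, the 5 best covered other steps, and the 3 largest rises and falls per comparison. The regions, the window and these rules were chosen with earlier results of these data known. Sequences and genes at these positions were not analysed here.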

Additional observations from a re-analysis of the deposited data

Results flagged for a closer look

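In 4 measures the list with OHT differed from the list without it in opposite directions in shNT and shCDK12 cells. With 1 list per condition, none of these differences was tested.

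The number of regions on chromosome 11 changed with OHT from 214 to 247 in shNT cells, by 33, and from 270 to 257 in shCDK12 cells, by -13. The median width changed from 78.2 to 66.0 kb in shNT cells, by -12.2 kb, and from 58.6 to 77.2 kb in shCDK12 cells, by 18.6 kb. The covered length was larger with OHT in both, by 1.92 and 3.98 Mb. Neither contrast held under all alternatives. With 1 minimum score shared by the lists, regions went from 216 to 256 in shCDK12 cells and from 214 to 234 in shNT cells, more with OHT in both, and the median width from 76.4 to 77.4 kb and from 78.2 to 69.2 kb. With neighbours up to 100 kb apart joined, regions were wider with OHT in both, from 136.4 to 190.0 kb in shCDK12 cells and from 101.8 to 137.6 kb in shNT cells.

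The relative density of chromosome 11 outside the 11q13 window changed with OHT by -0.0021 where the hairpin was shNT and by 0.030 where it was shCDK12. The ratio of the window's density to that of the rest changed from 2.07 to 2.13 in shNT cells, by 0.064, and from 1.80 to 1.78 in shCDK12 cells, by -0.022. This contrast in the ratio did not hold under all alternatives. For regions over 30 kb the ratio rose in both, from 2.067 to 2.107 in shNT cells and from 1.783 to 1.788 in shCDK12 cells. Per kb of sequence, covered or not, it fell in both, from 10.4 to 10.2 and from 9.004 to 7.58. It kept opposite directions with reads given by region midpoint and for the narrower window tried. The density of the window itself was higher with OHT in both, by 0.048 and 0.035.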

How the results depend on the processing

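No paired analysis was possible because the deposited lists merge the samples of a condition. For the same reason no sample could be left out. In the order shNT, shNT + OHT, shCDK12 and shCDK12 + OHT, joining neighbours up to 100 kb apart left 126, 133, 124 and 117 regions, and keeping regions at or above the median score of their list left 107, 132, 134 and 131. The 11q13 window kept the most cover of all 7 Mb windows of the chromosome in each list under the 5 alternatives tried. Its density ratio to the rest was above 1 in every list throughout: 2.11, 1.78 and 1.79 in the last 3 lists for regions over 30 kb, 2.05, 2.12, 1.81 and 1.76 with reads given by region midpoint, 2.31, 2.51, 2.11 and 2.09 for 64 to 67 Mb, and 10.4, 10.2, 9.004 and 7.58 per kb of sequence, covered or not, an alternative chosen after seeing the data, as was the scaling of step calls by narrow regions.

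The 4 comparisons are given in the order shNT + OHT over shNT, shCDK12 over shNT, shCDK12 + OHT over shNT + OHT and shCDK12 + OHT over shCDK12. The log2 change in density of the window was 0.20, -0.24, -0.51 and -0.070 when divided by the median region, 0.21, -0.35, -0.35 and 0.21 when divided by narrow regions, and 0.016, -0.21, -0.18 and 0.047 for regions over 30 kb. For 64 to 67 Mb it was 0.10, -0.17 and -0.24 in all but the last. By midpoint it was -0.18 for shCDK12 over shNT and 0.011 for the last comparison. Per kb of sequence it was -0.058, -0.37 and -0.22 in all but shCDK12 over shNT. The lower density with shCDK12 kept its sign under all of them. The small difference with OHT in shCDK12 cells reversed to -0.070 and -0.22, and that in shNT cells to -0.058; the cause was not tested.

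In the same order, steps raised were 0%, 0.746%, 3.73% and 2.24% with a call at 200 kb (over all chromosomes 0.361%, 0.427%, 2.69% and 2.79%), and those lowered 0% for shCDK12 over shNT (0.131%) and 1.49% for the same with OHT (0.164%). With steps of 500 kb, 6.34% were raised in the first comparison (5.89%), and 0.373% lowered in the first (0.247%) and in the last (0.313%). A common minimum score gave 1.49% raised in the first comparison (3.42%). Absent regions are given with their share and, after it, the share over all chromosomes. Under a reciprocal overlap of 50% they were 18 for shNT in shNT + OHT (8.41%, 12.3%), 87 for shCDK12 in shNT (32.2%, 34.7%), 31 for shNT in shCDK12 (14.5%, 17.5%), 74 for shCDK12 + OHT in shNT + OHT (28.8%, 32.1%), 64 in return (25.9%, 30.5%), 72 for shCDK12 + OHT in shCDK12 (28.0%, 30.4%) and 85 in return (31.5%, 32.4%). With 50% of the region overlapped they were 4 for shNT in shNT + OHT (1.87%, 2.61%), 15 for shNT in shCDK12 (7.01%, 9.11%), 51 for shCDK12 + OHT in shNT + OHT (19.8%, 21.3%) and 46 in shCDK12 (17.9%, 22.4%). A common minimum score gave 21 for shCDK12 in shNT (9.72%, 8.7%), 26 in return (12.1%, 13.7%), 55 for shCDK12 + OHT in shCDK12 (21.5%, 26.7%) and 4 in return (1.85%, 2%). Gaps of at least 1 Mb in the union numbered 24. Changes in cover could not be separated from depth, which differed between the lists.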
